A study of Mus musculus with 6 samples.

Results

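Integrin chains of exhausted CD8+ T cells were compared between mouse melanomas treated with interleukin-10 (IL-10) fused to an antibody Fc part and melanomas treated with buffer. The 10 genes were taken by name from the deposited count table of 15898 genes: the beta chains Itgb1, Itgb2, Itgb3 and Itgb7 and the alpha chains Itga1, Itga2, Itga4, Itgae, Itgal and Itgav. All 10 were listed, and all 10 passed the filter on low counts. They were chosen with the difference between these same libraries in view, as a possible exchange of the beta-1 chain for the beta-7 chain. Their fold changes are therefore descriptions and support no conclusion. In GENCODE M21 (GRCm38) the gene Itgb1 (ENSMUSG00000025809) spans chr8:128685654-128733200 on the plus strand and Itgb7 (ENSMUSG00000001281) chr15:102215995-102231935 on the minus strand. Itga1 and Itga2 are neighbours at chr13:114958079-115101964 and chr13:114835916-114932041, and Itga4 and Itgav lie at chr2:79255426-79333123 and chr2:83724397-83806916. Itgae lies at chr11:73090583-73147446, Itgb3 at chr11:104608000-104670476, Itgb2 at chr10:77530252-77565708 and Itgal at chr7:127296260-127335138.

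Both groups consisted of PMEL CD8+ T cells from B6.Cg mice with the Thy1a/Cy allele and the transgene Tg(TcraTcrb)8Rest/J, which gives them 1 transgenic T cell receptor against a melanocyte antigen. The C57BL/6 hosts of both groups had received 4 Gy of total body irradiation, 2000000 naive Thy1.1+ PMEL cells, B16F10 melanoma cells and, on day 10, 5000000 activated Thy1.2+ PMEL cells. The groups differed in what was injected next to the tumour 4 times from day 10, either phosphate-buffered saline (PBS, 2 libraries) or 20 µg of IL-10/Fc (4 libraries). On day 18, Thy1.1+ CD8+ cells positive for PD-1 and TIM-3 were sorted, and 500 cells went into each Smart-Seq2 library. The labels give no age, and they leave unsaid whether every library stems from a separate mouse, so the spread between libraries may in part be technical.

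Integrins are pairs of 1 alpha and 1 beta chain that anchor a cell to its surroundings, and a chain reaches the cell surface only with a partner. In T cells the alpha-L chain (Itgal) pairs with beta-2 (Itgb2) to form LFA-1, which binds ICAM proteins and holds a killer cell to its target. The alpha-4 chain (Itga4) has a choice of partners: with beta-1 (Itgb1) it forms VLA-4, a receptor for VCAM-1 and fibronectin, and with beta-7 (Itgb7) a receptor for the gut addressin MAdCAM-1. The alpha-E chain (Itgae, CD103) pairs with beta-7 alone and binds E-cadherin, while the collagen receptor chains alpha-1 (Itga1, CD49a) and alpha-2 (Itga2, CD49b) pair with beta-1 alone. The alpha-V chain (Itgav) pairs with beta-1, beta-3 (Itgb3) and other beta chains and binds matrix proteins with an RGD motif and latent TGF-beta.

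The sequences before the start sites of the opposed beta chains are shown because the question of an exchange turns on these loci. They are the 250 bases upstream of the gene start in RefSeq (GRCm38.p6), chr8:128685404-128685653 on the plus strand for Itgb1 and chr15:102231936-102232185 on the minus strand for Itgb7. Capitals mark the ETS core AGGAAG and the SP/KLF box GGGCGG, searched on both strands.
Itgb1: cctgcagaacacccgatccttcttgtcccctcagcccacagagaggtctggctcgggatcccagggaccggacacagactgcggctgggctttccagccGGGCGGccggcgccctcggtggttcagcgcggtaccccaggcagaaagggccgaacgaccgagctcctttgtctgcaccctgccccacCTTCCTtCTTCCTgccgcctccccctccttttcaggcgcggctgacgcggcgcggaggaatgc
Itgb7: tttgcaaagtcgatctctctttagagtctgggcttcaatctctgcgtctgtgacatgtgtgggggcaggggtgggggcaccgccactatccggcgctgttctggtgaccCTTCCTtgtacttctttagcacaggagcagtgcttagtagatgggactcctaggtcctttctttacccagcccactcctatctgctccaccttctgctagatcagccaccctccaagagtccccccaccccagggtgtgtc
The Itgb1 window held 2 ETS cores and 1 SP/KLF box, the Itgb7 window 1 ETS core and no SP/KLF box. Over all 32851 promoter windows of this length, 29.5% held the ETS core and 32.7% the SP/KLF box. Neither window held the STAT motif TTCNNNGAA or the RUNX motif TGTGGT, which were present in 7.02% and 14.0% of all windows. The Itgb1 window was 68.0% G and C with 21 CpG dinucleotides, and the Itgb7 window 56.0% with 5, beside medians of 52.4% and 6 over all windows. RefSeq promoters were matched for 6 of the 10 genes. These are descriptions of letters in a window and say nothing of factor binding.

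Counts over the listed genes summed to between 26738871 and 36941814 per library, and 3 counts equalled 0.0855 to 0.108 CPM (counts per 1000000, scaled by the trimmed mean of M values, TMM). Such floors cover counting error only, because the libraries carry no molecular identifiers. All 8 CD8 T cell markers looked for were present. Their summed level was 6867 and 10296 CPM in the PBS libraries and 12721 to 14338 CPM in the IL-10/Fc libraries, so that the PBS libraries lay below all others. The genes of the gate, Pdcd1 (PD-1) and Havcr2 (TIM-3), averaged 1432 and 194 CPM in PBS and 918 and 219 CPM with IL-10/Fc.

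By edgeR's quasi-likelihood test over 15477 genes with Benjamini-Hochberg adjustment, none of the 10 chains passed 0.05, with adjusted p from 0.148 to 0.951, and 1 gene (0.00646%) passed in all. At an unadjusted p under 0.05 there were 4 of the 10, Itgb7, Itgal and Itga1 on the higher side and Itgb1 on the lower side, beside 12.7% of all genes tested (7.2% higher and 5.52% lower). The same 4 were called in the authors' deposited table at an adjusted p under 0.05, where 5.3% of all genes were, and by DESeq2 fitted to the same counts (4.88% of genes). In 6 of the 10 the PBS and IL-10/Fc libraries did not overlap, 4 higher and 2 lower, beside 23.6% of all genes (12.1% higher and 11.5% lower). Nothing is read from these shares, since the chains were picked on this contrast.

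The beta-1 chain lay lower and the beta-7 chain higher in every IL-10/Fc library than in either PBS library. Itgb1 stood at 288 and 390 CPM in PBS replicates 1 and 2, and at 61.9, 112, 95.4 and 89.5 CPM in replicates 1 to 4 of the IL-10/Fc group. All its IL-10/Fc values thus lay far under the lower PBS value. The PBS mean was 339 ± 71.9 CPM (SD, n = 2) and the IL-10/Fc mean 89.8 ± 20.9 CPM (SD, n = 4), 3.77-fold lower, with a fitted log2 fold change of -1.92 (SE 0.24). In the authors' deposited table its adjusted p was 8.04e-10.

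Itgb7 stood at 23.2 CPM in both PBS libraries and at 115, 95.9, 30.6 and 83.4 CPM in replicates 1 to 4 of the IL-10/Fc group. Replicate 3 lay close to PBS, while the other three formed a group well above it. The means were 23.2 ± 0.0474 CPM (SD, n = 2) and 81.2 ± 36.1 CPM (SD, n = 4), with a log2 fold change of 1.81 (SE 0.52). The SD of the PBS pair comes from 2 values that happened to coincide and is no measure of the spread to be expected. The authors' deposited table gave Itgb7 an adjusted p of 0.00387.

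**Figure D1:**
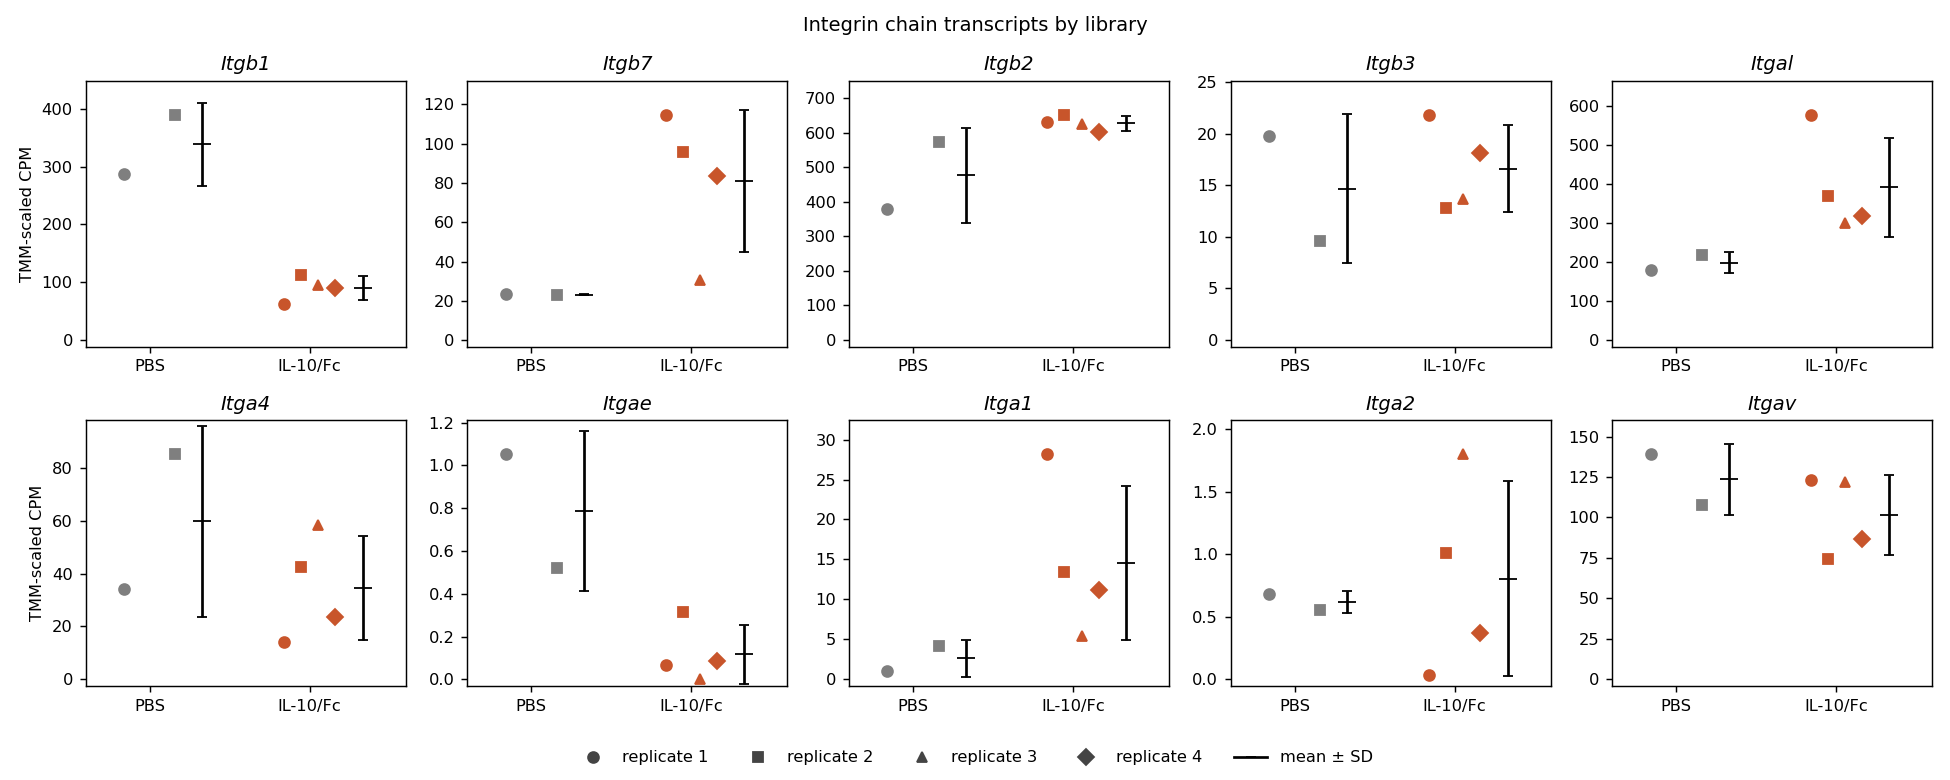
Level of each of the 10 integrin chains in TMM-scaled CPM (vertical axes, linear and different for each gene) in 2 PBS and 4 IL-10/Fc libraries. Symbols are single libraries and black bars the mean ± SD. Itgb1 lies at 288 and 390 CPM in PBS and at or below 112 CPM with IL-10/Fc, and Itgb7 lies at 23.2 CPM in PBS and at 30.6 to 115 CPM with IL-10/Fc.

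The beta-2 chain, the partner of LFA-1, was the most abundant of the 10. Itgb2 stood at 380 and 573 CPM in PBS and at 630, 651, 625 and 600 CPM in the IL-10/Fc libraries. The groups did not overlap, but PBS replicate 2 came close, and the log2 fold change of 0.40 (SE 0.17) became 0.13 without PBS replicate 1 and 0.72 without PBS replicate 2. The beta-3 chain, best known from platelets and osteoclasts, was low and did not separate the groups. Itgb3 stood at 19.8 and 9.57 CPM in PBS and at 21.8, 12.8, 13.7 and 18.2 CPM with IL-10/Fc (log2 fold change 0.18, SE 0.37), and the sign turned with scaling by library size only (-0.0019).

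Levels of different genes were compared after division by the merged exon length of each gene in GENCODE M21 (CPM per kb). In PBS the order of mean levels was Itgb2 (156 CPM per kb), Itgb1 (83.0), Itgal (30.3), Itgav (11.5), Itgb7 (8.37), Itga4 (4.27), Itgb3 (2.49), Itgae (0.172), Itga1 (0.141) and Itga2 (0.0865). The ranges of neighbours in this order overlapped for Itga4 and Itgb3, for Itgae and Itga1 and for Itga1 and Itga2. In IL-10/Fc the order was Itgb2 (205), Itgal (59.6), Itgb7 (29.3), Itgb1 (22.0), Itgav (9.45), Itgb3 (2.82), Itga4 (2.48), Itga1 (0.783), Itga2 (0.113) and Itgae (0.0255). There the ranges overlapped for Itgb7 and Itgb1, for Itgb3 and Itga4, for Itga4 and Itga1 and for Itga2 and Itgae. Itgb1 thus stood in the second place in PBS and in the fourth with IL-10/Fc, and Itgb7 in the fifth and the third, with a range that overlapped that of Itgb1.

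As a share of all beta chain transcripts per kb, Itgb1 made up 33.3% ± 1.12 (SD, n = 2) in PBS and 8.47% ± 1.92 (SD, n = 4) with IL-10/Fc. Itgb7 made up 3.45% ± 0.853 in PBS and 11.1% ± 4.66 with IL-10/Fc, and Itgb2 62.1% ± 2.71 and 79.1% ± 3.48. Shares sum to a fixed total, so a lower share of 1 chain raises the others. On the CPM per kb scale, Itgb1 and Itgb7 together stood at 91.4 ± 17.6 (SD, n = 2) in PBS and 51.3 ± 12.0 (SD, n = 4) with IL-10/Fc. The difference in mean level between the groups was smaller for Itgb7 (8.37 in PBS and 29.3 with IL-10/Fc) than for Itgb1 (83.0 and 22.0).

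**Figure D2:**
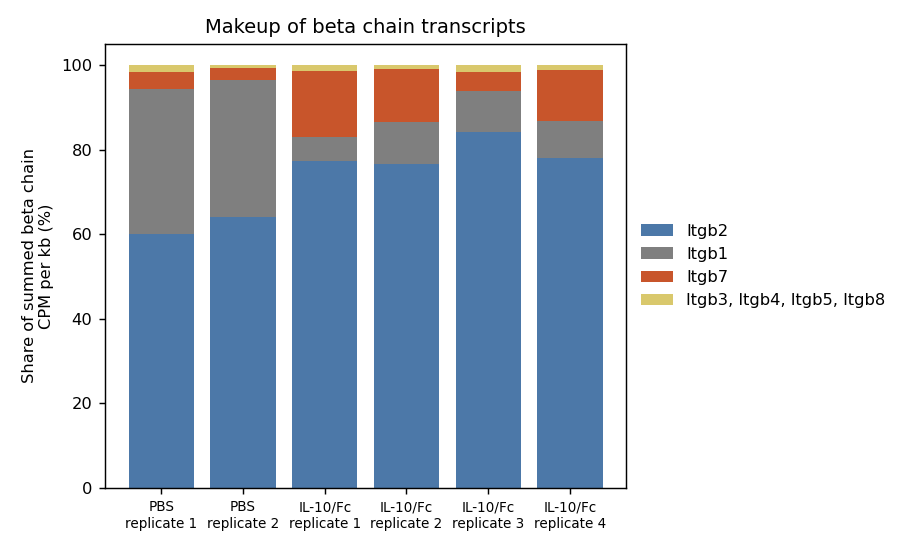
Share of each beta chain in the summed beta chain level (CPM per kb, vertical axis in percent) for each of the 6 libraries, 1 bar per library. Itgb1 holds 34.1% and 32.5% in the PBS libraries and 5.69% to 9.88% in the IL-10/Fc libraries, and Itgb7 holds 15.5%, 12.4%, 4.54% and 12.0% in replicates 1 to 4 of the IL-10/Fc group.

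The alpha chains that pair with beta-7 did not lie higher with it. Itga4 stood at 34.3 and 85.2 CPM in PBS and at 14.2, 42.7, 58.3 and 23.5 CPM with IL-10/Fc. The groups overlapped, in replicate 1 of the IL-10/Fc group, the library highest in Itgb7, the lowest in Itga4, and replicate 3, the lowest in Itgb7, the highest in Itga4 of its group. The fitted log2 fold change was -0.79 (SE 0.60), and it was 0.016 without PBS replicate 2. Exons of Itga4 share 1124 bases with Cerkl on the opposite strand, and Smart-Seq2 does not mark strand. Cerkl stood at 0.238 to 4.95 CPM, below Itga4 in every library.

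Itgae, the partner found only with beta-7 and a marker of tissue-resident T cells, was near the floor throughout. It stood at 1.05 and 0.523 CPM in PBS, from 31 and 16 counts, and at 0.0670, 0.314, 0 and 0.0855 CPM with IL-10/Fc, from 2, 9, 0 and 3 counts. The value of 0 allows up to 0.108 CPM. All IL-10/Fc libraries lay below both PBS libraries (log2 fold change -2.72, SE 1.32). The gene passed the filter on low counts through the PBS libraries alone, so a difference was built into its being tested. At these levels the alpha-E chain was detectable in PBS and at or close to the counting limit in 3 of the 4 IL-10/Fc libraries.

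Of the alpha chains that pair with beta-1 alone, alpha-1 lay higher where beta-1 lay lower. Itga1 stood at 1.02 and 4.21 CPM in PBS and at 28.2, 13.4, 5.47 and 11.2 CPM in replicates 1 to 4 of the IL-10/Fc group. The groups did not overlap, although IL-10/Fc replicate 3 lay just above PBS replicate 2. The log2 fold change was 2.47 (SE 0.87), and it ranged from 1.79 without PBS replicate 1 to 3.83 without PBS replicate 2. Exons of Itga1 share 685 bases with the protein-coding model Gm49395 on the same strand, which was not analysed here. The gene Pelo lies within Itga1 on the same strand, shares no exon bases with it, and stood at 4.65 and 2.74 CPM in PBS and 8.81, 7.57, 2.99 and 7.47 CPM with IL-10/Fc. The part of reads from either gene in the Itga1 counts was not tested.

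Itga2, the other collagen receptor chain, was close to absent. It stood at 0.679 and 0.555 CPM in PBS and at 0.0335, 1.01, 1.80 and 0.370 CPM with IL-10/Fc, so that the IL-10/Fc libraries lay on both sides of PBS. Its log2 fold change of 0.38 (SE 1.32) changed sign between settings. Itgav, the most abundant alpha partner of beta-1, differed little between the groups. It stood at 139 and 108 CPM in PBS and at 123, 74.4, 122 and 87.0 CPM with IL-10/Fc (log2 fold change -0.28, SE 0.25), and the groups overlapped. Without PBS replicate 1 the value was -0.09 and without PBS replicate 2 it was -0.45. Its exons share 634 bases with the opposite-strand gene Gm13684, which stood at 3.99 to 11.3 CPM.

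Itgal, the alpha chain of LFA-1, lay higher in all IL-10/Fc libraries. It stood at 180 and 218 CPM in PBS and at 578, 370, 301 and 318 CPM in replicates 1 to 4 of the IL-10/Fc group. The groups did not overlap, and replicate 1 stood above the other three. The means were 199 ± 26.6 CPM (SD, n = 2) and 392 ± 128 CPM (SD, n = 4), with a log2 fold change of 0.98 (SE 0.29). In the authors' deposited table Itgal had an adjusted p of 0.0254 and Itga1 of 0.0229. Among the IL-10/Fc libraries, Itgb7, Itgal and Itga1 had the same order, with replicate 1 highest, then 2, then 4, and replicate 3 lowest.

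**Figure D3:**
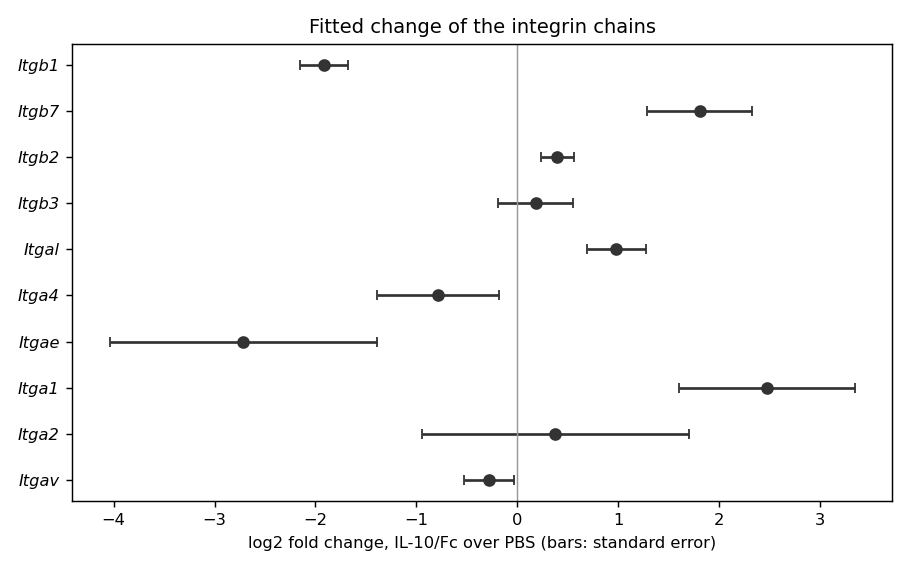
Fitted log2 fold change of each chain, IL-10/Fc over PBS (horizontal axis), with its standard error as bars, from edgeR's fit over 15477 genes. Itgb1 lies at -1.92 and Itgb7 at 1.81, while Itga4, which pairs with both, lies at -0.79. Itgae lies at -2.72 (SE 1.32), near the floor. It passed the filter on low counts through the PBS libraries alone, so nothing is read from its side. Itga1 lies at 2.47 (SE 0.87), opposite to its partner Itgb1.

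Ratios within a library need no scaling between libraries. The ratio of Itgb7 to Itgb1 per kb was 0.119 and 0.0876 in PBS and 2.73, 1.26, 0.473 and 1.37 in replicates 1 to 4 of the IL-10/Fc group. Every IL-10/Fc library exceeded both PBS libraries, and in 3 of them Itgb7 exceeded Itgb1. That separation follows from the choice of Itgb1 as lower and Itgb7 as higher in these same libraries. Nothing is read from it, here or in other ratios that hold either chain. The mean log2 ratio differed by 3.58 between the groups, 12.0-fold, with SDs of 0.31 (n = 2) and 1.04 (n = 4).

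As a sum, the alpha partners of beta-1 differed between the groups by less than Itgb1 itself, although single chains such as Itga1 did not. The summed level of the 7 listed alpha chains that can pair with beta-1 (Itga1, Itga2, Itga3, Itga4, Itga5, Itga6 and Itgav) was 16.4 ± 0.561 CPM per kb (SD, n = 2) in PBS and 13.8 ± 2.46 (SD, n = 4) with IL-10/Fc, and the groups overlapped. Itgav made up 59.9% to 81.1% of this sum in the 6 libraries. Per Itgb1 transcript the sum came to 0.226 and 0.176 in PBS and to 0.962, 0.417, 0.721 and 0.554 with IL-10/Fc. All IL-10/Fc libraries thus held more alpha partner per Itgb1 than either PBS library. Itgb1 exceeded the sum in every library on this length, but with the longest coding transcript as length the ratio was 1.38 and 1.01 in replicates 1 and 3 of the IL-10/Fc group.

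The ratio of single partners to Itgb1 was likewise above PBS in all IL-10/Fc libraries for Itga1, Itga4 and Itgav, with differences in mean log2 ratio of 4.51, 1.09 and 1.63. For Itga2 the ratios overlapped between the groups. The levels of Itga4 and Itgav themselves overlapped, so their ratios stood higher through the lower Itgb1, on which the chains were picked. The beta-7 partners were on the other side in most libraries. The level of Itga4 plus Itgae per Itgb7 transcript was 0.320 and 0.742 in PBS and 0.0249, 0.0901, 0.377 and 0.0564 with IL-10/Fc. In 3 of the 4 IL-10/Fc libraries the partners stood far below both PBS libraries, and replicate 3, with little Itgb7 and much Itga4, lay between them. Itga4 can also pair with beta-1, so this sum is an upper limit on transcripts left for beta-7.

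The ratio of Itgal to Itgb2 per kb was 0.220 and 0.176 in PBS and 0.427, 0.264, 0.224 and 0.246 with IL-10/Fc. The IL-10/Fc libraries lay above PBS, replicate 3 by a narrow margin, and the difference in mean log2 ratio was 0.51. The ratio of Itgav to Itgb3 was 3.87 and 6.19 in PBS and 2.63 to 4.91 with IL-10/Fc, with overlap.

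**Figure D4:**
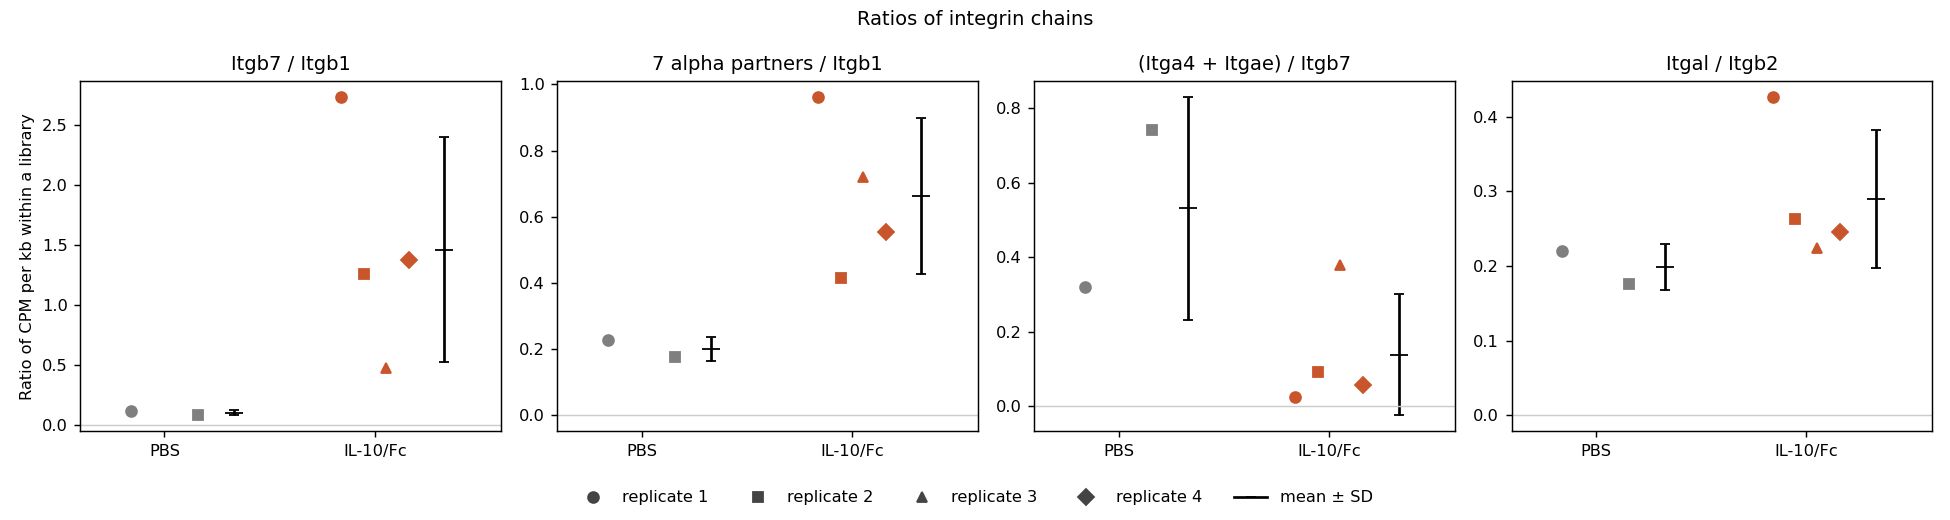
Ratios of integrin chain levels within each library (CPM per kb over CPM per kb, linear vertical axes), with single libraries as symbols and the mean ± SD in black. Itgb7 over Itgb1 is at most 0.119 in PBS and at least 0.473 with IL-10/Fc, the alpha partners per Itgb1 are higher with IL-10/Fc, and Itga4 plus Itgae per Itgb7 is below 0.1 in 3 of 4 IL-10/Fc libraries. Itgb1 and Itgb7 were picked on this contrast, so nothing is read from the separation.

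Of the 16 other integrin chains looked for, 9 were among the listed genes and the rest were not analysed here. Of these 9, 6 had a mean of at least 1 CPM. None of the 8 that were tested passed 0.05 after Benjamini-Hochberg adjustment of edgeR's quasi-likelihood p, and 3 had an unadjusted p under 0.05. These 3, Itga3, Itgam and Itgb8, passed the filter on low counts through the IL-10/Fc libraries alone, so a difference was built into their being tested. Itgax, the alpha chain CD11c of dendritic cells and of some activated T cells, stood at 3.84 and 9.64 CPM in PBS and at 57.8, 59.1, 11.3 and 9.55 CPM with IL-10/Fc. It was high in replicates 1 and 2 and near PBS in replicates 3 and 4. Itgam, the alpha chain CD11b of myeloid cells, stood at 0.0679 and 0 CPM in PBS, from 2 and 0 counts, and at 0.938, 0.837, 3.85 and 3.73 CPM with IL-10/Fc. Itgad stood at 0.781 and 0.555 CPM against 0.828 to 1.92 CPM.

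Itga3, a laminin receptor chain, stood at 0 and 0.359 CPM in PBS and at 2.28, 1.43, 2.45 and 5.67 CPM with IL-10/Fc, without overlap. Itga6, also a laminin receptor chain, stood at 3.70 and 2.35 CPM against 1.51 to 3.82 CPM, with overlap. Itgb5, a partner of alpha-V, was at 0 in 3 of the 6 libraries and reached 5.01 CPM in replicate 3 of the IL-10/Fc group. The last of the 9, Itga5, Itgb4 and Itgb8, averaged below 1 CPM over the 6 libraries. The authors' deposited table called Itgam, Itga3, Itgb8 and Itgax higher, beside 5.3% of all genes called in either direction.

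Integrin chains also mark cells outside the gate, and fewer cells of a type cannot be told apart from less RNA per cell in such samples. The 17 macrophage and monocyte markers other than integrins, all listed, summed to 681 and 673 CPM in PBS and to 703, 1026, 1305 and 1376 CPM in replicates 1 to 4 of the IL-10/Fc group. Of these, Mrc1 alone was at 0 in both PBS libraries. Ccr2, which T cells also express, gave 360 and 189 CPM of the PBS sums and 460 CPM of that in replicate 1 of the IL-10/Fc group. Without it, a choice made after seeing the data, the sums were 321 and 483 CPM in PBS and 243, 559, 1045 and 1068 CPM with IL-10/Fc, and the groups overlapped. Single markers differed from the sum. Of 16 tested, 14 had positive log2 fold changes, while those of Lyz2 and Apoe were negative. Fcer1g (means 37.6 and 228 CPM), Cd68 (43.0 and 85.8 CPM) and Ms4a7 lay higher in every IL-10/Fc library. Mrc1 did so too, but with 1 count (0.0349 CPM) in replicate 2. It passed the filter on low counts through the IL-10/Fc libraries alone, so its difference was built in. All other markers overlapped, beside 23.6% of all genes without overlap. The 7 listed of 10 dendritic cell and class II markers summed to 224 and 301 CPM in PBS and to 115, 592, 1904 and 1003 CPM with IL-10/Fc. Class II genes made up most of the larger sums, while the dendritic cell factor Zbtb46 stood at 61.0 and 23.3 CPM in PBS and 4.76 to 21.7 CPM with IL-10/Fc, and the receptor gene Xcr1 overlapped (20.7 to 33.8 and 19.1 to 33.2 CPM). Both sums were lowest of the IL-10/Fc group in replicate 1, the library with the highest Itgb7, Itgal and Itga1 and a high Itgax. Itgam had its higher values in replicates 3 and 4, as did the macrophage sum. The part of myeloid RNA in Itgb2, Itgam and Itgax was not tested.

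Markers of cells rich in beta-1 were low. The 2 listed of 11 fibroblast and endothelial markers summed to 20.4 and 16.6 CPM in PBS and to 6.59 to 9.87 CPM with IL-10/Fc. Nearly all of this came from Pecam1, at 18.5 and 7.68 CPM on average, while Col1a1 averaged 0.0497 and 0.317 CPM. Pecam1 was lower in all IL-10/Fc libraries, as was Itgb1. The endothelial markers Cdh5, Kdr and Tek and the fibroblast markers Col1a2, Col3a1, Dcn, Lum, Pdgfra and Pdgfrb were not among the listed genes. The part of such cells in the Itgb1 values was not tested. The 6 listed of 9 melanoma markers summed to 9.54 to 15.8 CPM in PBS and 9.58 to 25.1 CPM with IL-10/Fc. Of 8 platelet markers other than integrins, Pf4 was listed, at 4.08 to 5.37 CPM in PBS and 0.504 to 12.5 CPM with IL-10/Fc. Of cells that can carry beta-7, NK cells had 4 of 7 markers listed, summing to 60.1 and 7.02 CPM in PBS and 21.0 to 36.8 CPM with IL-10/Fc. Eomes, which is also on the list of T cell residency genes, gave 46.7 and 5.10 CPM of the PBS sums. With IL-10/Fc it gave 9.75 to 21.3 CPM. The 2 listed of 6 B cell markers summed to 42.5 and 42.8 CPM in PBS and 3.92 to 15.5 CPM with IL-10/Fc, and the 3 listed of 7 mast cell markers to 0.131 to 6.79 CPM over all libraries. Single genes differed in direction. Cd79b, a B cell receptor gene, stood at 0 and 0.719 CPM in PBS and 1.74 to 6.56 CPM with IL-10/Fc. Ighm, which made up most of the B cell sum in PBS, lay lower in all IL-10/Fc libraries. Of the 4 NK markers 2 had positive log2 fold changes. Among these, the NK receptor gene Klra8 stood at 0.272 and 0.327 CPM in PBS and 0.732 to 4.70 CPM with IL-10/Fc. Those of Klrb1c (10.1 and 0.0653 CPM against 0.0335 to 0.720 CPM) and Eomes were negative, with overlap. Cd79b and Klra8 passed the filter on low counts through the IL-10/Fc libraries alone. The part of such cells in the Itgb7 values was not tested.

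A further list held genes of integrin activation and of proteins that bind integrin tails, among them activators and inhibitors of binding. Log2 fold changes were positive in 16 of 26 genes tested and negative in 10. Of these, none passed 0.05 after Benjamini-Hochberg adjustment of edgeR's quasi-likelihood p, while 7 were higher and 0 lower at an unadjusted p under 0.05, beside 7.2% higher and 5.52% lower among all genes. DESeq2 called 2 of them higher, as did the authors' deposited table, beside 4.88% and 5.3% of all genes called in either direction. The median log2 fold change was 0.24, beside -0.0079 over all genes. In 12 of the 26 (46.2%, beside 23.6% of all genes) the groups did not overlap, 10 higher and 2 lower, the latter being Fermt3 (kindlin-3) and Dok2, which were named after their values were seen.

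Tln1 encodes talin, the protein that pulls integrin tails apart on activation. It stood at 56.8 and 96.0 CPM in PBS and at 162, 145, 122 and 130 CPM with IL-10/Fc (log2 fold change 0.87, SE 0.24). The value was 0.54 without PBS replicate 1 and 1.30 without PBS replicate 2. Skap1, an adaptor that links the T cell receptor to LFA-1, stood at 346 and 286 CPM against 473, 522, 457 and 440 CPM (0.58, SE 0.12). Its homologue Skap2 stood at 33.1 and 49.0 CPM against 52.3 to 93.5 CPM. Sharpin, which binds alpha chain tails and holds integrins inactive, stood at 35.8 and 32.2 CPM against 42.1 to 46.6 CPM. In all 4 genes every IL-10/Fc library lay above both PBS libraries.

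Focal adhesion and integrin signalling genes were mixed. Of 25 tested none passed 0.05 in edgeR's test with Benjamini-Hochberg adjustment, with 3 higher and 1 lower at an unadjusted p under 0.05 and a median log2 fold change of 0.05. The median was 0.27 without PBS replicate 1 and -0.12 with library size only. DESeq2 called 1 lower and the authors' deposited table called 0, beside 4.88% and 5.3% of all genes called in either direction. The 4 of 25 at an unadjusted p under 0.05 compare with 12.7% of all genes, and the 4 of 25 whose groups did not overlap with 23.6%. Zyx (zyxin), which joins stressed actin fibres, stood at 33.4 and 34.7 CPM in PBS and 43.1 to 86.8 CPM with IL-10/Fc. Lims1 (PINCH-1), a scaffold of the ILK complex behind beta tails, averaged 96.2 ± 11.8 CPM (SD, n = 2) and 126 ± 10.7 CPM (SD, n = 4). Vasp, an actin elongation factor, averaged 35.9 ± 4.83 and 48.9 ± 5.53 CPM. The tetraspanin Tspan32 lay on the other side, at 51.2 ± 17.3 and 12.2 ± 7.75 CPM, without overlap.

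Ligands of integrins were mostly low in these T cells, with 16 of 31 listed and 14 tested. None passed 0.05 after Benjamini-Hochberg adjustment of edgeR's quasi-likelihood p. At an unadjusted p under 0.05, 2 were higher, Lamc1 and Fn1, and 1 lower, Madcam1 (21.4%, beside 12.7% of all genes). Fn1 (mean 1.52 CPM, log2 fold change 9.11) passed the filter on low counts through the IL-10/Fc libraries alone. Madcam1 (0.517 CPM, -6.16) did so through the PBS libraries alone, so a difference was built into their being tested. The authors' deposited table and DESeq2 each called 2 higher and 1 lower, beside 5.3% and 4.88% of all genes called in either direction. The median log2 fold change of the list was -0.27, and 0.44 with limma-voom. It ranged from -0.56 (without IL-10/Fc replicate 3) to 0.55 (without PBS replicate 1), so it has no settled sign. Lamc1, a laminin chain, stood at 5.40 and 8.14 CPM in PBS and 26.8, 20.9, 18.8 and 14.6 CPM with IL-10/Fc. Icam1, the main ligand of LFA-1, stood at 144 and 111 CPM against 68.7, 103, 110 and 87.1 CPM, so that the ligand lay narrowly lower (log2 fold change -0.46, and -0.27 without PBS replicate 1). Icam2 overlapped, at 13.0 and 25.3 CPM against 18.8 to 30.1 CPM. Spp1 (osteopontin), a ligand of alpha-V and alpha-4 integrins, varied from 465 to 2674 CPM within PBS and from 299 to 1829 CPM within IL-10/Fc.

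The TGF-beta pathway, which is known to induce Itgae, was also described. Of 19 genes tested none passed 0.05 in edgeR's test with Benjamini-Hochberg adjustment. At an unadjusted p under 0.05, 1 was higher and 1 lower (10.5%, beside 12.7% of all genes). DESeq2 and the authors' deposited table called 0, beside 4.88% and 5.3% of all genes. The median log2 fold change was 0.13, but -0.031 without PBS replicate 2 and -0.045 with library size only, so it has no settled sign. Tgif1, a repressor of the pathway, stood at 151 and 115.5 CPM in PBS and 84.7 to 115.3 CPM with IL-10/Fc (log2 fold change -0.45, and -0.25 without PBS replicate 1). Smad3, a signal carrier of the receptor, averaged 4.76 ± 3.55 and 13.7 ± 7.72 CPM, with overlap, as did Ski (8.57 ± 0.636 and 14.1 ± 5.80 CPM) and Nrros (47.1 ± 35.4 and 23.3 ± 11.3 CPM).

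Genes of tissue residency and egress other than the integrins lay on both sides. Of 23 tested none passed 0.05 after Benjamini-Hochberg adjustment of edgeR's quasi-likelihood p. At an unadjusted p under 0.05, 2 were higher, Prdm1 and S1pr5, and 5 lower (30.4%, beside 12.7% of all genes). S1pr5 (mean 0.865 CPM, log2 fold change 8.30) passed the filter on low counts through the IL-10/Fc libraries alone, so its difference was built in. DESeq2 called 1 higher and 2 lower, beside 4.88% of all genes called in either direction. The authors' deposited table called 2 higher and 2 lower, beside 5.3% of all genes. The median log2 fold change was -0.38, with or without Itga1 and Itgae. With them it was 0.055 without PBS replicate 1 and 0.033 with the replicate block, so it has no settled sign. Ccr7, the receptor that guides T cells to lymph nodes, stood at 4010 and 548 CPM in PBS and 232, 108, 120 and 129 CPM with IL-10/Fc. PBS replicate 1 stood far above PBS replicate 2, and both above every IL-10/Fc library, with a log2 fold change of -4.77 without PBS replicate 2 and -1.90 without PBS replicate 1. Prdm1, which encodes the residency factor Blimp-1, stood at 9.54 and 14.1 CPM against 17.8, 19.8, 27.9 and 30.1 CPM. Tbx21 (T-bet) averaged 105 ± 19.1 and 56.9 ± 11.2 CPM, and Nr4a1 59.8 ± 31.0 and 30.7 ± 3.76 CPM, both without overlap. The log2 fold change of Nr4a1 was -0.96, and -0.31 without PBS replicate 1.

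**Figure D5:**
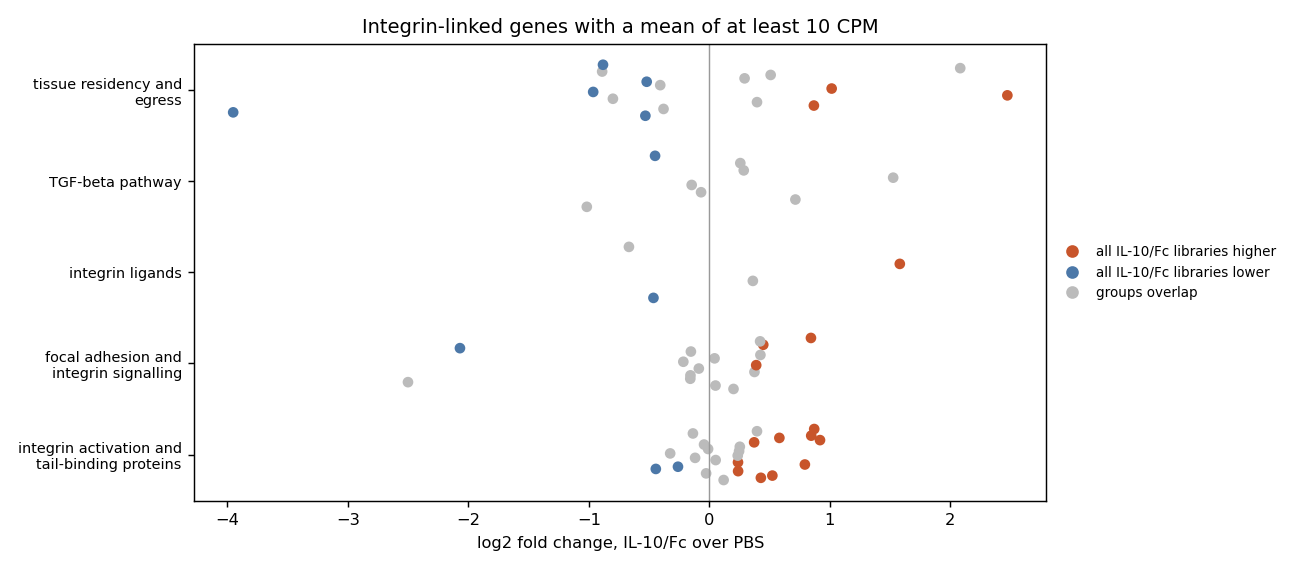
Fitted log2 fold change (horizontal axis, IL-10/Fc over PBS) of single genes with a mean of at least 10 CPM in 5 lists linked to integrins, the residency list including Itga1. Orange and blue points are genes whose IL-10/Fc libraries all lie above or below both PBS libraries. Tln1 lies at 0.87, Tspan32 at -2.07 and Ccr7 at -3.95.

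The genes whose level followed Itgb1 most closely over the 6 libraries were picked among 4619 genes with at least 20 CPM by the root mean square difference of centred log2 CPM. They were Fgfr1op (difference 0.31), a centrosome protein, the transcription factor gene Gtf2i (0.31), Gsto1 (0.33), a glutathione transferase, the tetraspanin gene Tspan3 (0.35) and the MAP kinase phosphatase gene Dusp1 (0.35), beside a median of 0.97 over all genes compared. Gsto1 stood at 188 and 274 CPM in PBS and 80.8, 112, 88.4 and 86.7 CPM with IL-10/Fc. Nearest to Itgb7 were the surface antigen genes Ly6c2 (0.30) and Ly6c1 (0.30), then Gab3 (0.37), Frmd4b (0.37) and Usp18 (0.38), beside a median of 1.0. Ly6c1 stood at 349 and 216 CPM in PBS and 1157, 947, 476 and 835 CPM with IL-10/Fc, the same order as Itgb7 within that group. Ly6c1 and Ly6c2 are near-identical, so reads may be split between them. Likeness over 6 libraries in 2 groups is a description and is shared by any genes that separate the groups.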

How the data were processed

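RNA of sorted PMEL CD8+ T cells was measured in 2 PBS and 4 IL-10/Fc libraries by Smart-Seq2, which copies whole poly(A) transcripts without strand or molecular identifiers, per the labels' protocols. The authors deposited 1 file of whole-number gene counts for each library, and a series table with the same counts and their comparison. That table gives a log2 fold change, p-values, a mean of normalized counts (a signal) and a test statistic (a score), per the file headers. The submitters' processing notes name the aligners TopHat2 2.1.1 and Bowtie2 2.2.9, the trimmer Trimmomatic, the tools Cuffdiff, Cufflinks 2.2.1 and DESeq2, and the build GRCm38 (mm10). The counter is not given in the sources used. Columns number the PBS libraries differently from the titles, and each sample's own file was followed.

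Here, counts were filtered with filterByExpr by group (15477 genes left), scaled by TMM (factors 0.950 to 1.10) and tested with edgeR 4.0.16 (quasi-likelihood, robust option, group as the sole term), two-sided, with Benjamini-Hochberg adjustment. The SE is the log2 fold change over the root of F. Lengths and overlaps came from GENCODE M21. Marker sums leave out integrin chains. Ratios were computed within a library. Profiles used log2 of CPM plus 0.5. Alternatives were DESeq2 1.42.0 (Wald test or size factors), limma 3.58.1 (voom), library size only, no count filter, 20 CPM in 2 libraries, no robust option, a replicate block, each library left out, and 1 CPM added to both chains of a ratio. The length of the longest coding transcript was an alternative chosen after seeing the data. The steps were tested on simulated data.

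Members and lists were chosen with earlier results of these data known. Text names all members, other chains with values from a mean of 1 CPM, up to 4 genes per list by smallest p from 10 CPM, and the 5 nearest profiles of Itgb1 and Itgb7.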

Additional observations from a re-analysis of the deposited data

Results flagged for a closer look

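Ccr7 in IL-10/Fc replicate 1, at 232 CPM, stood apart from the other three libraries of its group, which lay at 108 to 129 CPM. The gap to the nearest library was 0.834 of the group's range, just above the limit for 4 samples. Chance alone sets apart about 1 in 20 groups by this measure. None of the 10 integrin chains and none of their ratios met it in the IL-10/Fc group, and the PBS group was too small for it.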

How the results depend on the processing

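The count of all genes under an adjusted p of 0.05 was 1 with edgeR's quasi-likelihood fit. It was 741 with the DESeq2 Wald test, 60 at 20 CPM or more in 2 libraries, and 0 with library size only, without the robust option and with the replicate block (2299, 1995 and 1207 genes at an unadjusted p under 0.05), and it ranged from 0 to 16 without single libraries. Of the 10 chains, 0 passed by edgeR, 4 with DESeq2 and 1, Itgb1, at 20 CPM in 2 libraries. No chain passed when a library was left out. Of the genes on the linked lists 0 passed by edgeR and 9 with DESeq2, with 0 to 1 when a library was left out (the 1 without PBS replicate 2, Ccr7).

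Itgb1 had a log2 fold change of -1.92 (adjusted p = 1.60e-10) with DESeq2 and -1.94 (edgeR, adjusted p = 0.0264) at 20 CPM in 2 libraries, and -2.12 to -1.68 without single libraries. Itgb7 had 1.81 (adjusted p = 0.0028) with DESeq2 and 1.59 to 2.08 without single libraries. The difference in log2 ratio of Itgb7 to Itgb1 was 3.20 to 4.04. Directions turned for Itgb3 with library size only (-0.0019) and for Itga2 with limma-voom (-0.58) and with the replicate block (-1.30). Without single libraries the ranges crossed 0 for Itgb3 (-0.25 to 0.79), Itga2 (-0.39 to 0.77), Itga4 (-1.30 to 0.016), Itga6 (-0.35 to 0.30), Icam2 (-0.041 to 0.92), Spp1 (-1.44 to 1.09) and Nrros (-1.63 to 0.072). The cause was not tested.

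Library size only moved the median of all genes to -0.18. The replicate block rested on numbers 1 and 2 of the titles, which both groups carry. Same-numbered libraries deviated together with correlations of 0.06 and 0.01 across genes. The deviations of 2 PBS libraries from their mean mirror each other, so this check can neither show nor exclude pairs. The main fit did not take the numbers as pairs. With the replicate block Itgb1 had -2.01 and Itgb7 2.18. With the longest coding transcript as length, alpha chains per Itgb1 averaged 0.284 in PBS and 0.937 in IL-10/Fc, in place of 0.201 and 0.663, still without overlap. A PBS group of 2 limits every comparison, and Itgae and Itga2 are limited by depth.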
